A study of Mus musculus with 29 samples.

Results

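The genes described here are 10 long noncoding RNA (lncRNA) genes of mouse retinal neurons, namely A230077H06Rik, Malat1, Neat1, Meg3, Rian, Mirg, Miat, Rmst, Snhg11 and Six3os1, out of 24062 genes in the deposited RNA table. They were found by symbol, and they had been chosen for their RNA levels in these same libraries. Their RNA values are therefore a description without a test, and tests are given for the accessibility of their loci and for genes outside the set. RNA-seq covered 15 libraries of sorted cells, 3 from each of 5 populations, and ATAC-seq, in which a transposase cuts open chromatin, covered 12 libraries in the region table, 2 from each of 6 populations, and 2 libraries of double-sorted green cones with peaks only, so that 14 libraries had peaks. All bipolar populations carried Otx2-GFP+/-, a reporter at the Otx2 gene. The pan-BC RNA libraries, of all bipolar cells, came from Otx2-GFP+/- mice at postnatal days 44 to 47. The ON-BC and OFF-BC libraries, of cells that depolarise or hyperpolarise at light onset, came from Otx2-GFP+/-; Grm6-YFP+/+ mice at days 42 to 48, with YFP driven by the promoter of the ON-cell receptor gene Grm6, and the OFF-BC cells were sorted a second time. The pan-BC ATAC libraries, from days 43 and 44, carry the genotype Otx2-GFP+/-; Grm6-YFP+/+ in their labels, which the methods of the study do not give for these mice. Rods (Nrl-eGFP), blue cones (Nrl-eGFP;NrlKO, in which photoreceptors without the rod factor Nrl become S-cone-like) and, for ATAC-seq alone, green cones (Opn1mw-GFP) were from day 56 and from an earlier data set of the same laboratory. Cell class, age and data set thus cannot be told apart between bipolar cells and photoreceptors, and blue cones are a mutant model. Within an assay the ON-BC libraries differed in age, as did the OFF-BC libraries, so each set came from different mice. The study calls its replicates biological. For libraries of equal age, as in rods and cones, the labels do not say whether the animals were separate. The p-values measure the spread between libraries, which for those of equal age may be technical.

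Long noncoding RNAs are transcripts that are not read into protein, and many of them act or stay in the nucleus. Malat1 is a very abundant RNA of nuclear speckles, the domains where splicing factors gather, and Neat1 is the scaffold of paraspeckles. Meg3, Rian and Mirg follow each other in the imprinted Dlk1-Dio3 domain, are read from the maternal chromosome and hold microRNAs and small nucleolar RNAs. Six3os1 is read away from Six3, a homeobox gene of eye development, Miat and Rmst are known from neural progenitors, and Snhg11 is a small nucleolar RNA host gene of neurons.

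The RNA libraries held 12329548 to 26266746 counted reads and the ATAC libraries 4176776 to 12345845. Levels below are normalized counts, the reads of a library divided by its size factor. The 10 bipolar markers summed to 11164 to 14815 CPM (read counts scaled to a common library total) over the 9 bipolar libraries, to 79.9 to 113 CPM in rods and to 1472 to 1623 CPM in blue cones, where Cabp5 stood at 71.2% of its pan-BC level but Grm6 at 1.53%. The 6 rod markers reached 1531 CPM in bipolar libraries against 77821 to 97088 CPM in rods, and the 6 cone markers reached 6782 CPM, in OFF-BC, against 78602 to 85983 CPM in blue cones.

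**Figure D1:**
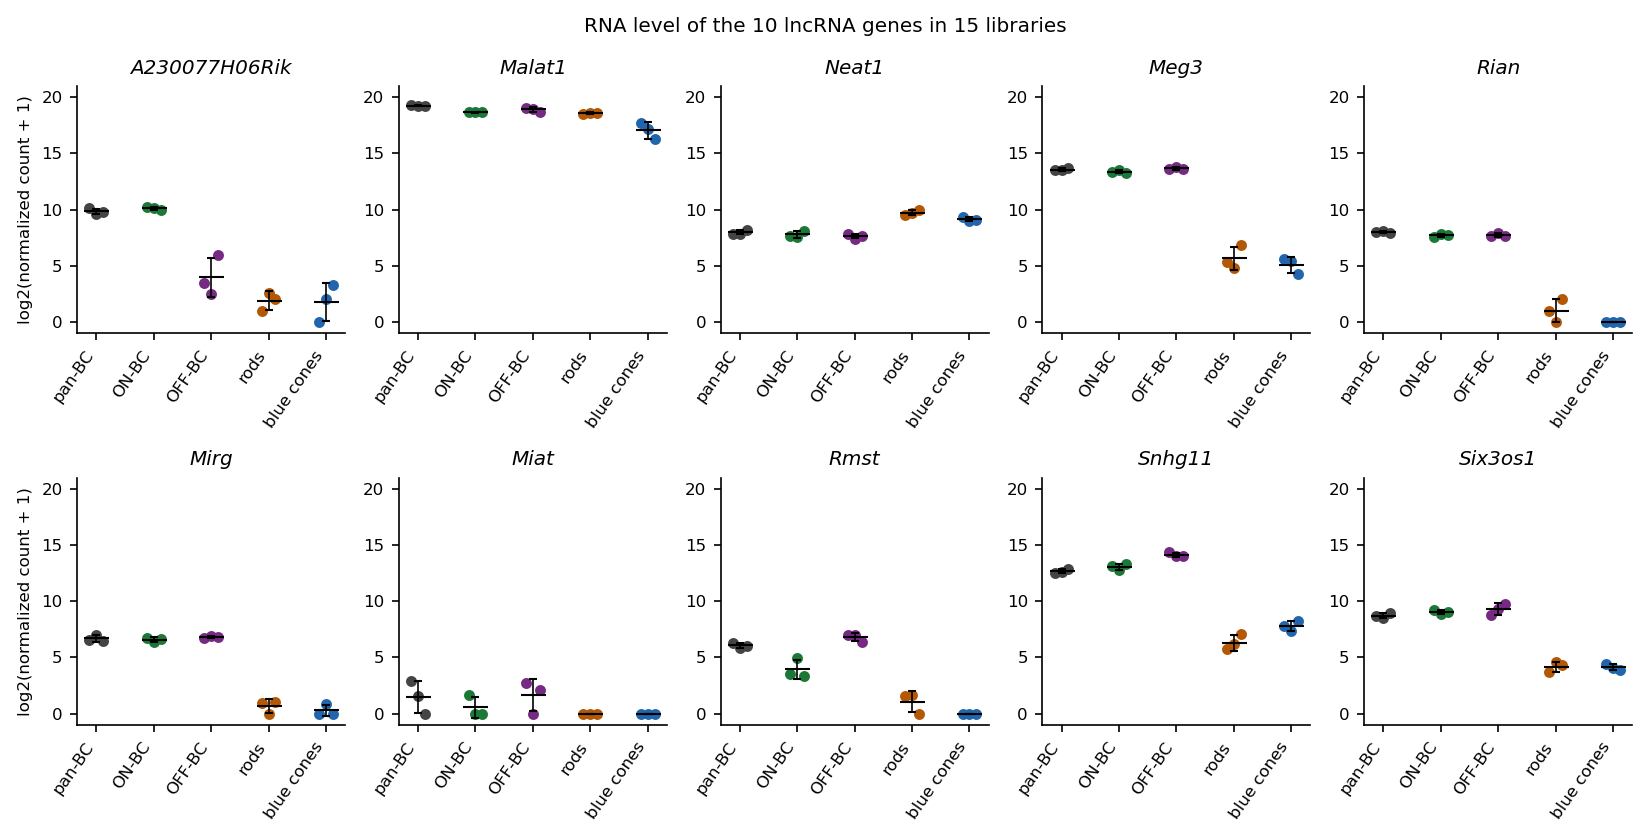
Each panel shows 1 gene, with log2(normalized count + 1) on the y axis and the 5 populations on the x axis; dots are libraries (n = 3), and the bar and whiskers are the mean ± SD. Malat1 and Neat1 are detected in every population, 7 genes are high in pan-BC and low in photoreceptors, and Miat is near 0 throughout.

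Of the 10 genes, 7 had high levels in pan-BC and low levels in both photoreceptor populations, Malat1 was abundant everywhere, Neat1 was highest in rods and Miat was close to 0. In bulk samples fewer cells of a type and less RNA per cell cannot be told apart. All but Miat, 9 genes, passed the filter on low counts. The counts below use limma's test for a difference of more than 1 on the log2 scale, with the false discovery rate held at 0.05. In pan-BC against rods 8 of 9 passed, 7 higher and Neat1 lower, where 43.6% of all 14024 genes tested passed (27.8% higher in pan-BC and 15.8% higher in rods). In pan-BC against blue cones 8 of 9 passed, all higher in pan-BC, where 36.3% of all genes passed (22.7% and 13.7%). The libraries did not overlap for any of the 9 genes in either comparison, as for 83.7% and 78.4% of all genes. Between the bipolar classes 2 of 9 passed, A230077H06Rik toward ON-BC and Rmst toward OFF-BC, against 6.55% of all genes (2.95% and 3.6%), and 5 of 9 did not overlap, against 42.2%. In rods against blue cones 0 of 9 passed by limma, against 15.9% of all genes (4.63% higher in rods and 11.3% in blue cones), and 3 of 9 did not overlap, against 60.9%; only Snhg11 passed under any other setting, 1 of 15. The genes were chosen from these contrasts, so nothing is read from the counts.

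**Figure D2:**
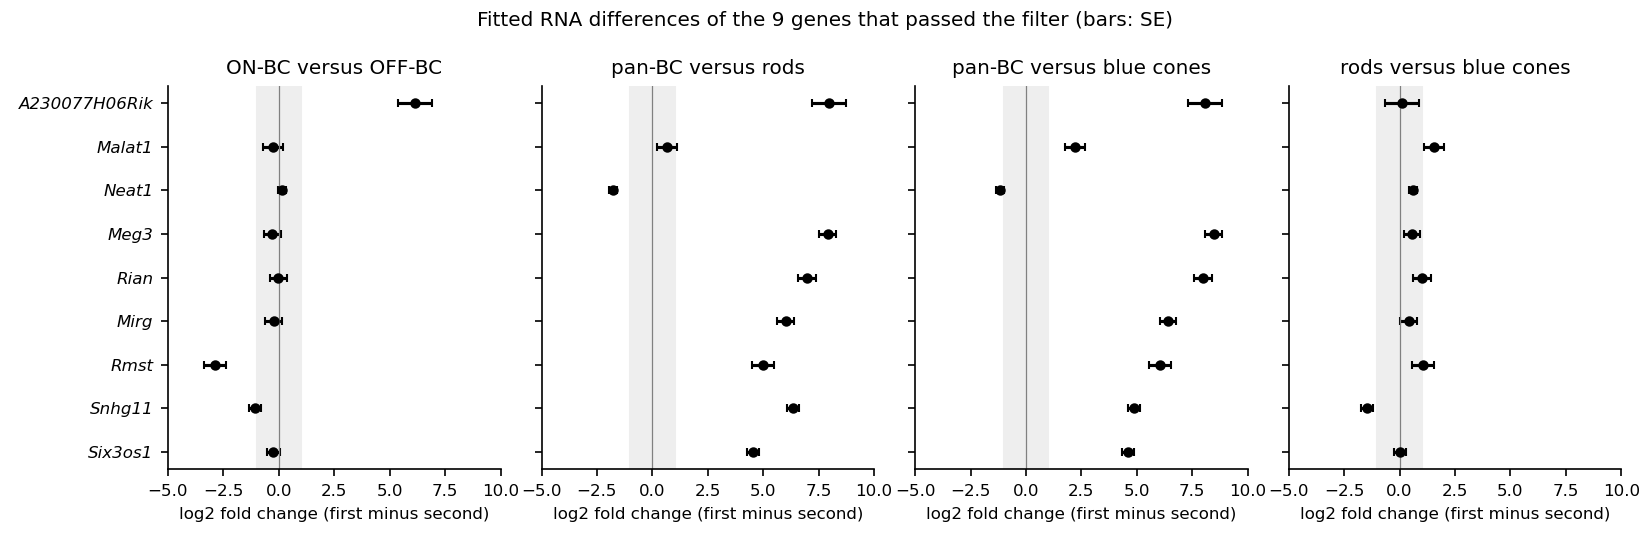
Log2 fold changes (x axis, first population minus second) of the 9 genes that passed the filter, in 4 comparisons, with SE bars; the grey band spans 1 log2 unit on both sides of 0. A230077H06Rik lies farthest from 0 between ON-BC and OFF-BC, at 6.15, and Neat1 is the gene on the photoreceptor side in both comparisons with pan-BC.

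A230077H06Rik was the member whose level differed most between ON-BC and OFF-BC. It is a gene of 5 exonic blocks on the minus strand at chr7:40849153-40898324 (GRCm38.p6), and its start lies 954 bases from that of the protein-coding gene Vstm2b, which is read the other way. Its promoter (RefSeq, GRCm38.p6, chr7:40898275-40898574, minus strand) and an accessible region between it and the Vstm2b start (chr7:40898651-40898850, GRCm38, plus strand) are shown because that region separated ON-BC from OFF-BC. The intron region (chr7:40873460-40873659, GRCm38, plus strand) is shown because it was the most accessible one of the gene in ON-BC, with TAATTA and the reverse complement of TAATCC in capitals.
A230077H06Rik promoter: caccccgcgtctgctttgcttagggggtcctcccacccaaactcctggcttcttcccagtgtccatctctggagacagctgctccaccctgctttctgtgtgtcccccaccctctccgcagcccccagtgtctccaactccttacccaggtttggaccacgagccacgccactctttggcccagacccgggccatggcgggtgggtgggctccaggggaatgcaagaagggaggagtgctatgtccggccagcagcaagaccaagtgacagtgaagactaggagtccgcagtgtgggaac
A230077H06Rik upstream region: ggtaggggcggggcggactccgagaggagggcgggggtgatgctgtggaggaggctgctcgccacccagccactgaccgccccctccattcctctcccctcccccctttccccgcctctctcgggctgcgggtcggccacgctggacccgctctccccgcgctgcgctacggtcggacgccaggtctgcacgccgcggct
A230077H06Rik intron region: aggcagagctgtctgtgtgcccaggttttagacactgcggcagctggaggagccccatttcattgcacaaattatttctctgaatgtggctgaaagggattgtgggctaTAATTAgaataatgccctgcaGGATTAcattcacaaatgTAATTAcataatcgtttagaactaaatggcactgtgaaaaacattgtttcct

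The 3 pan-BC libraries held 1103, 777 and 909 normalized counts of A230077H06Rik. The ON-BC libraries held 1197, 1166 and 991, while those of OFF-BC held 10.1, 4.81 and 59.6. Every ON-BC and pan-BC library thus lay above every OFF-BC library, and ON-BC overlapped with pan-BC. Rods held 0.97, 5.12 and 3.24 and blue cones 0, 3.04 and 8.88, which overlap with each other and with OFF-BC. On the log2 scale ON-BC exceeded OFF-BC by 6.15 ± 0.77 (SE), and pan-BC exceeded rods by 7.95 ± 0.77 and blue cones by 8.07 ± 0.77. OFF-BC replicate 3, the highest of its group, was also the highest for the ON-cell gene Grm6. As a share of the ON-BC mean, the OFF-BC libraries stood at 0.900%, 0.430% and 5.33% for A230077H06Rik and at 1.08%, 0.481% and 4.39% for Grm6, and the part of ON cells in these values was not tested. Without OFF-BC replicate 3 the ON-BC excess was 7.12 log2 units.

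Vstm2b, which encodes an immunoglobulin-domain membrane protein, is no member and was singled out after its values were seen. Its libraries held 2579, 2639.7 and 2289 normalized counts in ON-BC and 29.1, 19.2 and 121 in OFF-BC, again with OFF-BC replicate 3 highest. ON-BC was higher by 5.89 ± 0.58 log2 units (SE, limma, adjusted p = 9.58e-06). Against rods and blue cones pan-BC was higher by 8.21 ± 0.58 (adjusted p = 5.5e-09) and 9.71 ± 0.58 (adjusted p = 1.19e-09). The library kit does not mark strand, so reads where genes on both strands overlap cannot be told apart. By their annotated starts and strands Vstm2b and A230077H06Rik point away from each other and share no bases.

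Accessibility, a measure from other libraries than those used to choose the genes, was tested in 4 regions of 200 bases at A230077H06Rik. The upstream region, centred 426 bases before the start, lies between this start and that of Vstm2b and cannot be assigned to either gene alone. It held 128 and 138 normalized counts in ON-BC and 10.8 and 16.5 in OFF-BC. It was 3.22 ± 0.59 log2 units (SE) more accessible in ON-BC (limma, adjusted p = 0.0166), where 7.39% of all 108448 regions tested passed (4.58% toward ON-BC and 2.8% toward OFF-BC). The call was lost without ON-BC replicate 1 (adjusted p = 0.0725), ON-BC replicate 2 (0.0988) or OFF-BC replicate 1 (0.115). The region 112 bases inside the gene held 80.6 and 63 in ON-BC and 25.6 and 3.89 in OFF-BC and did not pass (log2 fold change 2.66 ± 0.77, limma adjusted p = 0.18). It passed with the replicate number as a block (adjusted p = 0.0428), with edgeR (0.0427) and without OFF-BC replicate 1 (0.0457). The intron region, 24765 bases inside, held 142 and 271 against 67.4 and 60.4 (1.61 ± 0.50, adjusted p = 0.569). The region 3014 bases before the start, and 2060 bases past the start of Vstm2b, held 159.8 and 205 and 167 and 146, so that these libraries overlapped (0.21 ± 0.47, adjusted p = 1).

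All 4 regions were more open in pan-BC, over rods by 4.91 to 6.75 log2 units and over blue cones by 4.20 to 6.27, where 51.6% and 35.9% of all regions passed. Peaks that the authors called in single libraries had a summit in the promoter window, from 1000 bases before the start to 100 after it, in 4 of 14 libraries, which were both pan-BC and both ON-BC ones. This window also covers the Vstm2b start. In all, each bipolar library had 54772 to 94468 peaks and each photoreceptor library 29410 to 52066. The intron region holds TAATTA, a core bound by homeodomains, at 2 places and TAATCC, the core of CRX and OTX2 sites, at 1. Searched on both strands, TAATTA stands in 5.2% and TAATCC in 21.8% of all 110715 regions, and neither stands in the promoter or the upstream region shown. GC content was 74.5% in the upstream region against a median of 50% over all regions.

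**Figure D3:**
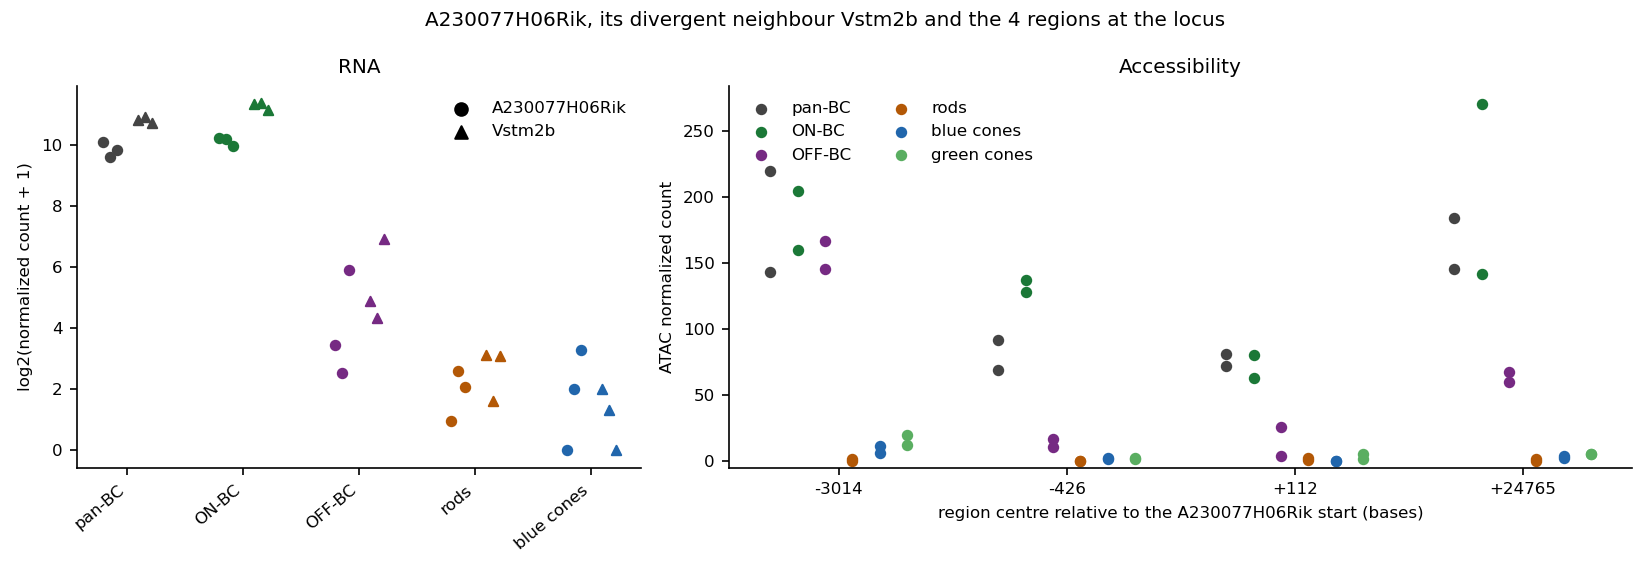
Left, log2(normalized count + 1) of A230077H06Rik and Vstm2b in the 3 RNA libraries of each population; right, normalized ATAC counts in the 2 libraries of each population for the 4 regions, by the distance of their centre from the A230077H06Rik start in bases. At -426 the ON-BC libraries (128 and 138) lie above those of OFF-BC (10.8 and 16.5), while at -3014 they overlap.

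Meg3, Rian and Mirg were high in all 3 bipolar populations and far lower in photoreceptors, where Rian and Mirg were close to 0. They lie at chr12:109540996-109571729, chr12:109603945-109661716 and chr12:109734981-109749458 on the plus strand (GRCm38.p6). The Meg3 promoter (RefSeq, GRCm38.p6, chr12:109540746-109541045, plus strand) is shown because the region over it separated bipolar cells from photoreceptors, and capitals mark TGACGTCA, the cyclic AMP response element, a motif added to the search after the sequences had been read.
Meg3 promoter: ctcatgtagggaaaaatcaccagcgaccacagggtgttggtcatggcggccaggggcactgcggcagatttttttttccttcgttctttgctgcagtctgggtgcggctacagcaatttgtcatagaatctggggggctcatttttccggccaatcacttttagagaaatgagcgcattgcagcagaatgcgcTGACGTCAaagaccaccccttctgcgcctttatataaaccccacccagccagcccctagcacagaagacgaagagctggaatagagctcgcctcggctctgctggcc

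Meg3, an imprinted RNA with growth-restraining activity, had 11530, 11854 and 13056 normalized counts in the pan-BC libraries. It had 10649, 11534 and 9933 in ON-BC, below the 12404, 14597 and 12418 of OFF-BC without overlap. Rods held 40.8, 26.6 and 111 and blue cones 46.6, 43.3 and 18.5, which overlap with each other and lie far below each bipolar library. The pan-BC excess was 7.91 ± 0.37 log2 units (SE) over rods and 8.46 ± 0.37 over blue cones, and ON-BC minus OFF-BC came to -0.29 ± 0.37. Rod replicate 3, which had the most Meg3 among rods (0.916% of the pan-BC mean, against 0.335% and 0.219%), also had the most Grm6 (1.40% against 0.491% and 0.632%). In blue cones the library with the least Meg3 (0.152%) had the most Grm6 (2.15%), and the part of bipolar cells in these traces was not tested.

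Rian, which hosts small nucleolar RNAs, had 252, 267 and 239 normalized counts in pan-BC. The ON-BC libraries held 189.9, 230.3 and 211 and the OFF-BC libraries 202, 238 and 199, so these classes overlapped (log2 difference -0.02 ± 0.40). Rods were at 0.97, 0 and 3.24 and all blue cone libraries at 0. With 3 reads per library as the limit that a count of 0 allows, pan-BC was at least 112-fold higher than blue cones.

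Mirg, which holds a large microRNA cluster, had 93.6, 127 and 88.1 normalized counts for pan-BC, 107, 80.3 and 96.4 for ON-BC and 104, 117 and 111 for OFF-BC, all overlapping. Over 3 libraries each, 2 reads were counted in rods and 1 in blue cones. The ratio of summed reads, scaled by size factors, was 153 for pan-BC over rods (95% exact interval 41.8 to 1266) and 416 over blue cones (74.1 to 16489). Such intervals cover counting error only. Over the 9 bipolar libraries Rian reads came to at most 2.26% of Meg3 reads and Mirg reads to at most 1.07%. Per exonic length, in RPKM (reads scaled by exonic length and library total), pan-BC held 60.3 ± 5.22 of Meg3, 5.08 ± 0.995 of Mirg and 4.52 ± 0.199 of Rian (SD, n = 3).

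RefSeq lists 16 microRNA genes inside the members, in Meg3, Rian, Mirg and Rmst, with 30 mature sequences and 29 different seeds, the bases 2 to 8 that pair with targets. The 1 shared seed belongs to a pair in Mirg. It is shown with 1 mature form of each microRNA gene that lies wholly in exons, Mir770 and Mir1906-1 in Meg3 and Mir410 in Mirg, since exonic bases enter the counts of a host (seed in capitals).
mmu-miR-453: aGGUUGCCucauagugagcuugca
mmu-miR-496a-5p: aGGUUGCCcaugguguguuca
mmu-miR-770-5p: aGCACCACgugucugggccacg
mmu-miR-1906: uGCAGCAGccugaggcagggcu
mmu-miR-410-3p: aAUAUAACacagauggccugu
Mature microRNAs were not measured in these libraries of long RNA.

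At Meg3, 3 of 4 regions were more accessible in pan-BC than in rods and in blue cones, as were 40.3% and 28.8% of all regions. Green cones were not compared. In the region 2029 bases inside, 1 of the 3, they held 40 and 33.8 normalized counts against 85.6 and 71.8 in pan-BC. The region centred 78 bases before the start held 58.4 and 64.4 normalized counts for pan-BC, 79.1 and 64.4 for ON-BC and 62 and 46.7 for OFF-BC. It held 0 and 0.678 in the rod libraries, 5.18 and 0 in those of blue cones and 6.15 and 5.63 in those of green cones, all below each bipolar library. The pan-BC excess was 5.59 ± 0.69 log2 units (SE) over rods (limma, adjusted p = 1.41e-05) and 4.65 ± 0.69 over blue cones (adjusted p = 0.000263). The call against blue cones in the intron region 1147 bases inside (2.64 ± 0.67, adjusted p = 0.0356) was lost without any 1 of the 4 libraries compared (adjusted p 0.082 to 0.148). All 6 bipolar ATAC libraries had a peak summit in the Meg3 promoter window, and no photoreceptor library did. Each bipolar library also had more peaks in all than each photoreceptor library. The intron region 8283 bases inside Meg3 held 7.2 and 10.8 for pan-BC, 15.6 and 12.2 for rods and 61.5 and 35.2 for green cones, and passed in none of the 4 comparisons.

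Rian and Mirg had 1 region each. The Rian region, in an intron, was 3.71 ± 0.63 log2 units (SE) more accessible in pan-BC than in rods (limma, adjusted p = 0.000748), and the one downstream of Mirg 4.17 ± 0.47 (adjusted p = 1.11e-05). The latter held 37.7 and 73.2 normalized counts in green cones against 10.4 and 9.39 in blue cones and 0.779 and 1.36 in rods. Both regions hold TAATTA, and neither gene had a promoter peak in any of 14 libraries. TGACGTCA stands in 1.79% of all 32851 promoters and in 0.845% of all regions.

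Of 8 protein-coding genes in and beside the Dlk1-Dio3 domain 6 were tested, and 2 rose in pan-BC over each photoreceptor population. Of all genes 27.8% rose over rods and 22.7% over blue cones. Rtl1, a retrotransposon-derived gene on the other strand, starts 3615 bases from the start of Rian and is read away from it. Its libraries held 7.45, 21.2 and 18.4 normalized counts for pan-BC and 0.97, 0 and 1.08 for rods (log2 difference 3.26 ± 0.55, limma adjusted p = 0.00121). That call was lost with a pseudocount of 8 (0.231). As the kit does not mark strand, reads counted for Rtl1 may come from either strand. Begain, of the postsynaptic density, exceeded rods by 4.74 ± 0.51 log2 units (adjusted p = 3.49e-06) and blue cones by 3.66 ± 0.51 (adjusted p = 0.000182). The paternally expressed Dlk1 and Dio3 were at 0 in every library but ON-BC replicate 1.

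Malat1 was the member with the most reads in each population. It is a single-exon gene at chr19:5795690-5802672 on the minus strand. The pan-BC libraries held 644886, 624514 and 610970 normalized counts, those of OFF-BC 549569, 511578 and 425211 and those of ON-BC 412619, 409355 and 410056. Rods held 372684, 408407 and 408273 and blue cones 213519, 150756 and 78455. In the order pan-BC, OFF-BC, ON-BC, rods, blue cones no neighbours overlapped, although ON-BC and rods came close. By reads Malat1 ranked 1 among all genes in each bipolar population, 4 in rods and 8 in blue cones. It took 4.02 ± 0.0541% of counted reads for pan-BC, 2 ± 0.0771% for rods and 0.787 ± 0.385% for blue cones (SD, n = 3). The kit primes with oligo-dT, and how far these counts follow the amount of Malat1 RNA was not tested. On the log2 scale pan-BC exceeded blue cones by 2.20 ± 0.46 (SE) and rods by 0.66 ± 0.46, and rods exceeded blue cones by 1.54 ± 0.46. Without blue cone replicate 3, the lowest library, the pan-BC excess over blue cones was 1.80, and over 15 settings it was past the threshold in 11.

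Accessibility at Malat1 did not follow the order of its RNA. The region inside its transcript, 2516 bases from the start (chr19:5800057-5800256, GRCm38, plus strand), is shown because it was open in rods.
Malat1 transcript region: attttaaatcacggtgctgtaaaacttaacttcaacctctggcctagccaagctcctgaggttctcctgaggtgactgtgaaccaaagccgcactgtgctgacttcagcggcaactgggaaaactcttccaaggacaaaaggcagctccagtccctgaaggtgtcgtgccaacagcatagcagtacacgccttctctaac
It held 128 and 131 normalized counts in the rod libraries, against 10.4 and 5.7 for pan-BC, 7.77 and 5.78 for blue cones and 43 and 16.9 for green cones, so each rod library lay above all others. Rods exceeded blue cones by 4.09 ± 0.67 log2 units (SE, limma, adjusted p = 0.00265), where 10% of all regions passed (1.46% toward rods and 8.56% toward blue cones). The pan-BC minus rods difference was -3.91 ± 0.67 (adjusted p = 0.000696). With rods and blue cones alone in the fit the adjusted p of the former was 0.0508.

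The Malat1 promoter region with the most reads, 992 bases before the start, held 414 and 406 in rods, 263 and 174 in pan-BC and passed in no comparison. The one 676 bases before the start held 136 and 125 in rods and 33.6 and 21.7 in pan-BC (log2 difference -2.23 ± 0.47, limma adjusted p = 0.0176). That call was lost without pan-BC replicate 2 (adjusted p = 0.126), rod replicate 1 (0.0742) or rod replicate 2 (0.0521).

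Neat1 was the only member whose level was higher in both photoreceptor populations than in pan-BC. It lies at chr19:5824708-5845480 on the minus strand, beside Malat1, and gives a short polyadenylated and a long form from 1 start. Rods held 745, 846 and 988 normalized counts and blue cones 645, 503 and 545. The pan-BC libraries held 234, 234 and 289, those of ON-BC 200.2, 191 and 279 and those of OFF-BC 227, 169 and 206. Rods lay above blue cones and both above every bipolar library, and ON-BC overlapped with the other bipolar populations. The pan-BC minus rods difference was -1.76 ± 0.17 log2 units (SE), pan-BC minus blue cones -1.16 ± 0.17, the latter not past the threshold, and rods minus blue cones 0.61 ± 0.17. Per length of the short form, 3185 bases, the level was 13.6 ± 1.79 RPKM in rods and 5.09 ± 0.744 in pan-BC (SD, n = 3), and the counts do not tell the forms apart. At its locus none of the 6 regions passed in any of the 4 comparisons by limma, while edgeR called 3 of the 6 in pan-BC against rods, all toward rods. The promoter region with the most reads, 484 bases before the start, held 231 and 211 in rods, 198 and 105 in pan-BC and 88.1 and 103 in blue cones. Neat1 had a promoter peak in 14 of 14 libraries.

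Of 13 paraspeckle protein genes, 4 (30.8%) fell in pan-BC against rods and none rose by limma. Of all genes 15.8% fell and 27.8% rose there. The median log2 fold change was -0.82 over the list and 0.21 over all genes, and the list was chosen with earlier results known. Pspc1, a core paraspeckle protein, fell from 482, 548 and 441 normalized counts in rods to 137, 128 and 91.8 (-2.05 ± 0.23, adjusted p = 0.000487). The RNA-binding proteins Hnrnph3 (-1.93 ± 0.13, adjusted p = 7.04e-06) and Tardbp (-1.43 ± 0.09, adjusted p = 0.000411) fell too. The call for Rbmx (-1.23 ± 0.10, adjusted p = 0.0437) was lost without any 1 of the 6 libraries compared, with adjusted p up to 0.101. Nono, another core protein, differed by -0.28 ± 0.13 (adjusted p = 1). In pan-BC against blue cones Hnrnph3 and Ewsr1 fell (-1.64 ± 0.13 and -1.45 ± 0.11) and Taf15 rose (3.28 ± 0.23). Of all genes 13.7% fell and 22.7% rose in that comparison.

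Of 13 nuclear speckle protein genes, 2 (15.4%) fell in pan-BC against rods and none rose by limma. This share is near the 15.8% of all genes that fell there. The genes that fell were the splicing factor Srsf2 (-4.01 ± 0.53, adjusted p = 6.07e-05) and Hnrnpu, a chromatin-bound RNA-binding protein (-2.99 ± 0.15, adjusted p = 1.84e-09). Both also fell against blue cones (-3.36 ± 0.53 and -1.73 ± 0.15), where 13.7% of all genes fell. No gene of the paraspeckle and speckle lists passed between the bipolar classes, where 6.55% of all genes did.

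Rmst, known from neural progenitors, was highest in OFF-BC. It spans chr10:92081746-92165178 on the minus strand. OFF-BC held 129, 129.8 and 80.6 normalized counts, pan-BC 78.7, 56.5 and 63.6 and ON-BC 10.3, 29.4 and 9.23. Rods held 1.94, 2.05 and 0 and each blue cone library 0. From OFF-BC to rods these populations follow each other without overlap. ON-BC minus OFF-BC came to -2.87 ± 0.50 log2 units (SE), past the threshold in 11 of 15 settings but not without ON-BC replicate 1 or 3 or OFF-BC replicate 1 or 2, and pan-BC was at least 29.4-fold higher than blue cones with the limit of 3 reads per library.

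Of the 4 Rmst regions, 3 were tested, and each was more accessible in pan-BC than in rods, by 4.03 to 4.98 log2 units. The region 31925 bases inside the gene held 44.8 and 43.9 normalized counts in ON-BC and 8.08 and 1.95 in OFF-BC (3.13 ± 0.85, limma adjusted p = 0.106), and the one 55178 bases inside 37.3 and 60 and 5.39 and 5.84 (2.87 ± 0.81, adjusted p = 0.145). Their libraries did not overlap, with more reads in ON-BC, where the RNA was lower, but neither difference passed. The region 2559 bases inside held 46.3 and 51.2 in ON-BC and 56.6 and 45.8 in OFF-BC, which overlap. All 3 also passed against blue cones, but each lost that call without pan-BC replicate 1 (adjusted p 0.064, 0.0729 and 0.102 for those 55178, 31925 and 2559 bases inside) and without a blue cone library (replicate 1, 0.137 and 0.225 for the first and the last, and replicate 2, 0.251 for the other). Without pan-BC replicate 2 the calls 31925 and 2559 bases inside were lost too (0.0569 and 0.186).

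Snhg11, at chr2:158375713-158386474 on the plus strand, was the member with the second highest level per length in each bipolar population. Its promoter (RefSeq, GRCm38.p6, chr2:158375463-158375762, plus strand) is shown because the region over it had peaks in bipolar libraries alone. It holds none of the 4 motifs searched.
Snhg11 promoter: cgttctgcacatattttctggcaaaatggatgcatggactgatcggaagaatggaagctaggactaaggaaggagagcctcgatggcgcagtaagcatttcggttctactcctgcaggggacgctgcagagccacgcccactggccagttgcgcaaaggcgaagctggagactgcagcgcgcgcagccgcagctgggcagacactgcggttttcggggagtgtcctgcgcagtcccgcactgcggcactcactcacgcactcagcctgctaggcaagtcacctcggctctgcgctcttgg

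OFF-BC held 20881, 16530.4 and 16445 normalized counts of Snhg11. ON-BC held 8809, 6778 and 9838 and pan-BC 5969, 6161 and 7428, which overlap and lie below OFF-BC. Blue cones held 219, 166 and 304 and rods 51.4, 69.7 and 136, without overlap. ON-BC minus OFF-BC came to -1.09 ± 0.27 log2 units (SE), not past the threshold, and pan-BC exceeded rods by 6.35 ± 0.27 and blue cones by 4.86 ± 0.27. In RPKM, OFF-BC held 189 ± 17.5 of Snhg11, 65.7 ± 9.18 of Meg3 and 4577 ± 526 of Malat1 (SD, n = 3).

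The region centred 91 bases before the Snhg11 start held 41.6 and 57 normalized counts for pan-BC, 44.8 and 46.9 for ON-BC and 76.8 and 66.2 for OFF-BC. The rod libraries held 0 and 2.71 and those of blue cones 5.18 and 3.61. The pan-BC excess was 4.69 ± 0.67 log2 units (SE) over rods (limma, adjusted p = 8.8e-05) and 3.22 ± 0.67 over blue cones (adjusted p = 0.00786, or 0.0713 without pan-BC replicate 2). ON-BC minus OFF-BC was -0.63 ± 0.67 (adjusted p = 1). Its promoter window had a peak in all 6 bipolar libraries, which had more peaks in all, and in no photoreceptor library. The other region, in an intron, held 47.2 and 50.2 in pan-BC and 77.9 and 81.3 in rods and passed nowhere.

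Of 11 other small nucleolar RNA host genes tested, 2 rose in pan-BC over rods, Snhg4 (3.38 ± 0.18, limma adjusted p = 1.8e-09) and Snhg7 (1.77 ± 0.18, adjusted p = 0.00082). That is 18.2%, against 27.8% of all genes. Over blue cones 6 of 11 (54.5%) rose, against 22.7% of all genes. Among them were Snhg8 (2.74 ± 0.13, adjusted p = 3.33e-09), Snhg9 (2.53 ± 0.21) and Snhg12 (2.29 ± 0.15). The list medians were 0.91 and 1.48, against 0.21 and 0.16 over all genes. No gene of the list passed between ON-BC and OFF-BC, where 6.55% of all genes did.

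Six3os1 lies at chr17:85601932-85618396 on the minus strand, and its start is 2438 bases from that of Six3. Pan-BC held 415, 362 and 493 normalized counts of Six3os1, ON-BC 589, 469 and 533 and OFF-BC 431, 640.4 and 881. Rods held 11.6, 22.5 and 18.4 and blue cones 20.3, 15.9 and 14.1. The bipolar populations overlap, as do the photoreceptor populations, and the pan-BC excess was 4.55 ± 0.27 log2 units (SE) over rods and 4.58 ± 0.27 over blue cones. Six3 held 938, 753 and 852 in ON-BC and 519, 752 and 1009.7 in OFF-BC. Unlike Six3os1, Six3 was higher in blue cones (235, 200.3 and 178) than in rods (10.7, 11.3 and 21.6), with a rods minus blue cones difference of -3.78 ± 0.26 (limma, adjusted p = 1.11e-07) against 0.03 ± 0.27 for Six3os1. Whether the 2 differences differ was not tested.

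The region over the Six3 start, 2391 bases before that of Six3os1, separated ON-BC from OFF-BC, and its part upstream of Six3 (chr17:85620688-85620833, GRCm38, plus strand) is shown for that reason.
Six3 upstream: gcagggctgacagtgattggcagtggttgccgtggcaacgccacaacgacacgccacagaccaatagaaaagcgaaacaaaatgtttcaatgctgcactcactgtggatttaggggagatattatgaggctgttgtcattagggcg
The whole region held 157 and 161 normalized counts for ON-BC, 165 and 155 for pan-BC and 29.6 and 21.4 for OFF-BC. The rod libraries held 19.5 and 19.7 and those of blue cones 47.9 and 42.6. ON-BC exceeded OFF-BC by 2.61 ± 0.29 log2 units (SE, limma, adjusted p = 0.00117), a call made under 13 of 13 settings. The Six3 RNA differed there by 0.20 ± 0.26 (adjusted p = 1). Pan-BC exceeded rods by 2.97 ± 0.29 (adjusted p = 9.26e-06) and blue cones by 1.80 ± 0.29 (adjusted p = 0.0194), the latter lost with TMM scaling (0.112) and without pan-BC replicate 1 (0.0826), pan-BC replicate 2 (0.0616) or blue cone replicate 2 (0.0962). The 4 other regions passed in no comparison. Of 6 genes listed as partners of Six3os1 (Six3, Ezh2 and 4 Eya genes) 4 were tested, and Ezh2, a histone methyltransferase, rose in ON-BC over OFF-BC (979 ± 103 against 187 ± 32 normalized counts, SD, n = 3, limma adjusted p = 4.53e-06). Of all genes 2.95% rose there. Eya1, whose protein works with those of the Six3 family, fell in pan-BC against blue cones (-6.54 ± 0.44 log2 units, adjusted p = 9.75e-09). Ezh2 (2.56 ± 0.15, adjusted p = 1.32e-07) and Six3 (1.70 ± 0.26, adjusted p = 0.0216) rose there, where 22.7% of all genes rose and 13.7% fell. Both also rose in pan-BC over rods (1.55 ± 0.15 and 5.49 ± 0.26), where 27.8% of all genes rose.

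Miat was barely detected. Its libraries held 6.38, 2.02 and 0 normalized counts for pan-BC, 2.06, 0 and 0 for ON-BC, 5.59, 0 and 3.31 for OFF-BC and 0 in all photoreceptor libraries. A count of 0 allows 3 reads per library, or 3.08 normalized counts in rods, and 8 of the 9 bipolar libraries lay at or under 5.59, so that levels this low are barely above what a count of 0 allows. At its locus (chr5:112213228-112228948, minus strand) 2 of 4 regions were more accessible in pan-BC than in rods, where 40.3% of all regions were. The exonic one, 11576 bases inside, held 32.8 and 11.4 normalized counts for pan-BC, 4.67 and 0 for rods and 22 and 32.5 for blue cones (3.10 ± 0.71 log2 units for pan-BC minus rods, limma adjusted p = 0.01). That call was lost without pan-BC replicate 1 (adjusted p = 0.13) or rod replicate 2 (0.202), as was that of the intron region 1510 bases inside (0.11 and 0.12). Of 4 splicing factors that bind Miat, Celf3 exceeded rods by 6.35 ± 0.22 log2 units in pan-BC (limma, adjusted p = 9.81e-13). Pan-BC also exceeded blue cones for Celf3 (1.64 ± 0.22, adjusted p = 0.0155), and rods lay below blue cones (-4.71 ± 0.22, adjusted p = 3.55e-10). Qk exceeded blue cones in pan-BC by 2.40 ± 0.16 (adjusted p = 5.2e-07). Of all genes 27.8% were higher in pan-BC than in rods, 22.7% higher than in blue cones, and 11.3% higher in blue cones than in rods. Neither Sf1 nor Srsf1 passed in any comparison.

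Over the 10 loci, each taken with 5 kb on both sides, 37 regions were found and 36 tested. In pan-BC against rods 18 of 36 passed, 16 higher in pan-BC and 2, both at Malat1, higher in rods, where 51.6% of all regions passed (40.3% and 11.2%). Against blue cones 12 of 36 passed, all higher in pan-BC, where 35.9% of all regions passed (28.8% and 7.13%). The shares are close to those of all regions, and the medians were 1.37 and 0.49 log2 units against 1.16 and 0.54. Between ON-BC and OFF-BC 2 of 36 passed, where 7.39% of all regions did, and in rods against blue cones 4 of 36, where 10% did, but no more than 2 of these were called without any 1 of the 4 libraries.

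**Figure D4:**
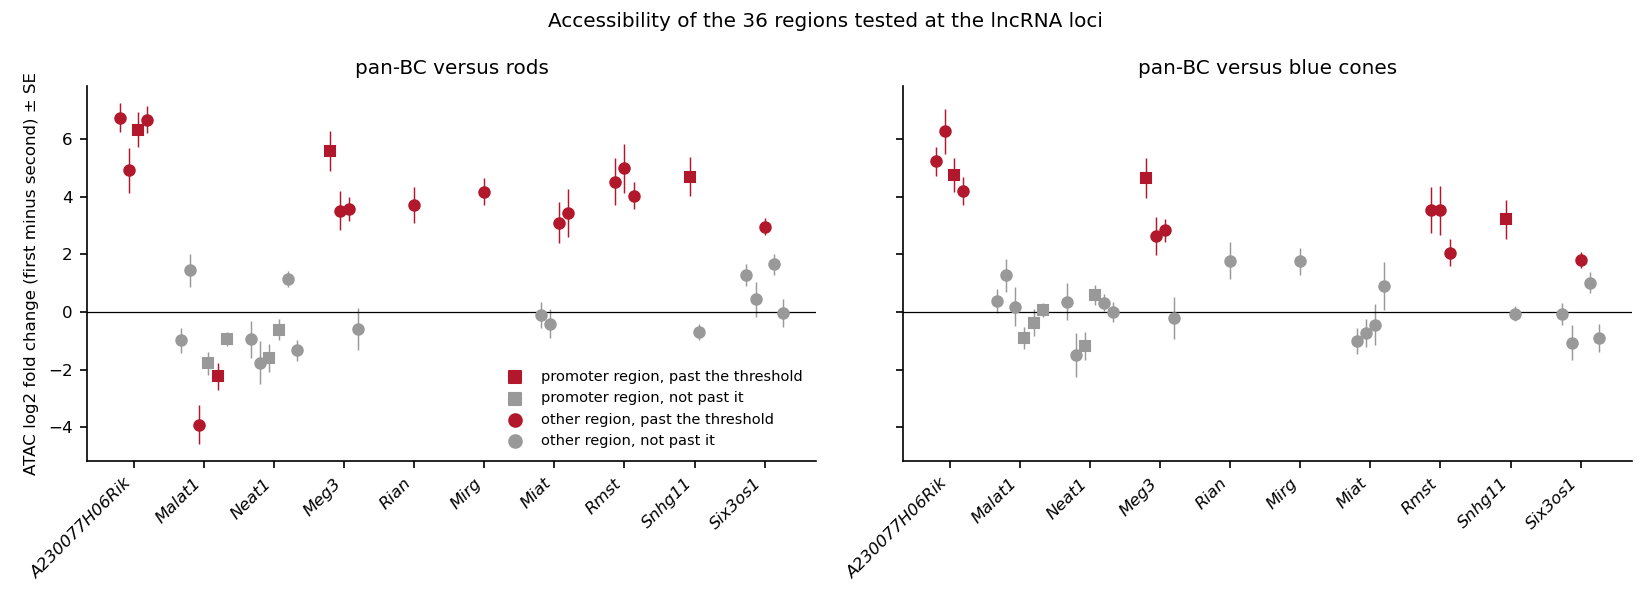
ATAC log2 fold changes (first population minus second, with SE bars) of the 36 regions tested, by member, for pan-BC against rods and pan-BC against blue cones; squares are promoter regions, circles other regions, and red marks those past the threshold. All 4 regions of A230077H06Rik and all 3 of Rmst are red in both comparisons, and 0 of 6 of Neat1 are.

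Many genes shared the pattern of most members over the 15 RNA libraries. By Pearson's r of log2(normalized count + 1), the gene most like Meg3 was the lncRNA A330102I10Rik (0.997), and the gene most like Rian was Meg3 (0.996). Slc24a3, a sodium-calcium exchanger gene, was most like Snhg11 (0.996), Cox7b, of cytochrome oxidase, most like Six3os1 (0.993), and a gene listed under the date-like name 4-Mar most like Mirg (0.996). Gstp1, a glutathione transferase, was most like A230077H06Rik (0.989), the synaptic scaffold gene Dlg4 most like Neat1 (0.985), Amph, of vesicle endocytosis, most like Rmst (0.978), and Wasf2, an actin regulator, most like Malat1 (0.969). More than 0.95 was reached by 950 genes with Meg3, by 1125 with Snhg11 and by 9 with Malat1. The libraries share populations and data sets, and the values describe likeness alone.

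Of 1797 other lncRNA genes in the table, 646 were tested. In pan-BC against rods 209 were higher and 94 lower (46.9% of the tested lncRNA genes, with a median of 0.58). Over all genes 43.6% passed there, with a median of 0.21. Against blue cones 211 were higher and 65 lower (42.7%, median 0.70), where 36.3% of all genes passed (median 0.16). Between the bipolar classes 18 passed toward ON-BC and 26 toward OFF-BC (6.81%, against 6.55% of all genes). Between the photoreceptor populations 44 were higher in rods and 51 in blue cones (14.7%, against 15.9% of all genes). Toward ON-BC the widest differences were those of C330024D21Rik (95.2 ± 25.2 against 1.85 ± 1.69 normalized counts, SD, n = 3, limma adjusted p = 0.000135) and 8430431K14Rik (69.1 ± 21 against 1.52 ± 1.7, adjusted p = 4.06e-05). Toward OFF-BC they were those of 1110015O18Rik (149 ± 50.6 against 0.997 ± 0.98) and 2900057B20Rik (104 ± 29.8 against 0.686 ± 0.594). Against rods A330076H08Rik led (7685 ± 527 in pan-BC against 13.6 ± 7.49), and 6430562O15Rik was lowest (1.91 ± 1.52 against 1459 ± 129).

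Among lncRNAs with known names, Crnde was higher in OFF-BC than in ON-BC (120.4 ± 14.8 against 1.34 ± 1.16 normalized counts, SD, n = 3, limma adjusted p = 2.39e-06) and Pvt1, beside Myc, higher in ON-BC (52.7 ± 5.28 against 3.7 ± 3.38, adjusted p = 0.00222). They were the 2 of 8 other widely expressed lncRNAs tested that passed there, against 6.55% of all genes. Tug1, known from photoreceptor development, fell in pan-BC against rods (-4.05 ± 0.15 log2 units, adjusted p = 1.11e-11) and blue cones (-3.05 ± 0.15). Of 4 lncRNAs beside developmental factor genes, Sox2ot (5.54 ± 0.65), Zeb2os and, under some of the settings, Otx2os1 (1.23 ± 0.10) rose in pan-BC over rods, Vax2os fell (-4.69 ± 0.23), and Vax2os was also higher in rods than in blue cones (5.82 ± 0.23, adjusted p = 1.6e-11). Of 7 imprinted or X-inactivation lncRNAs, Kcnq1ot1 (1.86 ± 0.30) and Ftx (1.68 ± 0.16) rose in pan-BC over rods, and Firre fell (-1.89 ± 0.19). Of 3 microRNA host genes, Mir17hg fell in pan-BC against rods (-4.75 ± 0.39, adjusted p = 1.23e-07). For these short lists, 27.8% of all genes rose and 15.8% fell in pan-BC against rods.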

How the data were processed

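RNA-seq libraries were made from sorted retinal cells with an oligo-dT-primed kit that does not mark strand. Per the labels, the methods and, for versions, the submitters' processing notes, the authors aligned reads to GRCm38/mm10 with STAR 2.7.0d and counted them with HTSeq, and aligned ATAC-seq reads with Bowtie2 2.2.5 (the methods give another version), removed duplicates with Picard 2.19.0 and fragments over 150 bases, and counted reads in 200-base regions of the union of peaks. The deposited values of both tables are signal, counts divided by 1 size factor per library, and 100.0% of the values above 0 came out as whole reads within 0.01. The deposited peaks, called by the authors per library with MACS2 2.1.1, hold a score, a fold enrichment ratio, −log10 p and q, and a summit offset, of which position, summit and fold were read. RNA depth was 12329548 to 26266746 and ATAC depth 4176776 to 12345845 reads.

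Log2(normalized count + 1) was tested with limma 3.58.1 (treat, log2 fold change 1, trended prior, Benjamini-Hochberg, false discovery rate 0.05) after edgeR 4.0.16 filterByExpr, in R 4.3.3, over 14024 genes in 15 libraries and 108448 regions in 12, with 1 shared spread. Alternatives were edgeR and DESeq2 1.42.0 on recovered reads, TMM scaling, pseudocounts of 0.5 and 8, no filter, only the populations compared, a replicate block, each replicate left out and regions assigned by nearest start. On simulated data of these designs 76 to 85 of 100 4-fold and 99 or 100 of 100 16-fold changes were called for RNA, and 25 to 39 and 99 or 100 for ATAC. Intervals and floors were exact at 95% and 3 reads per library, and cover counting error only. Sequences came from RefSeq, where 8 of 10 members had a promoter entry, and TAATCC, the palindrome TAATTA, the E-box CAGATG, and TGACGTCA, added later, were searched on both strands. The members and lists were chosen with earlier results of these data known. Per the labels, same-numbered ON-BC and OFF-BC mice had the same age (RNA, days 43, 48 and 42), but whether they were the same animals is not given in the sources used here, and same-numbered RNA libraries correlated at -0.076, 0.222 and -0.065 in their deviations from the population means. The fit reported has no block. Other genes named were, by rule, up to 4 called genes of each list with the widest change, the 2 widest in each direction for other lncRNAs, the gene most alike in pattern, and for regions the highest promoter region and the widest called one; others named, and genes beside a member, were added after their values were seen. Double-sorted green cones have peaks but no column in the region table.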

Additional observations from a re-analysis of the deposited data

Results flagged for a closer look

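Peaks of the 2 double-sorted green cone libraries enter no test, since these libraries have no column in the region table, and have no control of their own. They are counted in the report only among the 14 libraries with peaks. Within the member loci and 5 kb on both sides, replicate 3 had 10 peaks and replicate 4 had 5, against 15 and 10 in the single-sorted green cone libraries and 8 to 26 over the 12 libraries of the region table. Replicate 4 also had the fewest peaks in all, 29410, against 43221 in replicate 3. Each had a promoter peak at 1 member, Neat1. Groups of 2 or 3 libraries are too small for the check for single libraries that stand apart.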

How the results depend on the processing

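Calls at the member loci depended most on the settings in the ATAC comparisons with few calls. In ON-BC against OFF-BC the 2 calls became 6 with edgeR, 4 with a pseudocount of 8, 6 with regions assigned by nearest start, and 1 to 2 with each replicate left out. In pan-BC against blue cones the 12 calls became 20 by nearest start, which takes in more regions, and 7 to 9 with each replicate left out, 7 without either pan-BC library. In rods against blue cones the 4 calls became 7 with edgeR, 1 with DESeq2, 1 with a pseudocount of 8, 0 with only these populations fitted, 0 with the replicate block, and 1 to 2 with each replicate left out. The 18 calls in pan-BC against rods stayed between 15 and 27, and of 22 calls by edgeR 16 were higher in pan-BC and 6 in rods (72.7% against 88.9%), where limma gave 16 and 2. Of the 6 edgeR calls between the bipolar classes 5 were higher in ON-BC (83.3% against 100%, or 2 of 2). The cause of these changes was not tested. RNA calls stayed within 1.5 times of the main counts under every alternative run, and no value past the threshold turned its direction. RNA differences that did not pass changed sign under some alternatives for Neat1, Rian and Six3os1 between the bipolar classes and for A230077H06Rik, Meg3 and Six3os1 between rods and blue cones. TMM scaling moved the median of all regions by -0.22 log2 units in ON-BC against OFF-BC, -0.20 in pan-BC against rods and -0.28 in pan-BC against blue cones. The replicate block gave 945, 6306, 4837 and 1633 RNA calls in the 4 comparisons against 919, 6112, 5092 and 2231. In the comparison of the bipolar classes the block changed the call of 1 region at a member locus, that 112 bases inside A230077H06Rik (adjusted p = 0.0428 by limma). Of the values of named genes and regions under alternatives, 33 of genes and 65 of regions lost their call. With 2 ATAC libraries a population, 4-fold changes were mostly missed on simulated data.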
